A study of Mus musculus with 6 samples.

Results

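The cytosolic ribosomal protein genes encode the proteins of the large (Rpl) and small (Rps) subunit of the cytoplasmic ribosome. The members were the protein-coding genes of GENCODE M21 whose symbol is Rpl or Rps with a protein number, together with Rplp0, Rplp1, Rplp2 and Rpsa. Pseudogenes and the S6 kinases were left out, and 6 pseudogenes with symbols of the same form (Rps4l, Rps3a2, Rps3a3, Rps12l1, Rpl6l and Rpl32l) fell out at this step. This gave 84 members, 52 of the large and 32 of the small subunit, of 56748 genes in each file and of 21922 protein-coding genes. Fau and Rack1 also encode ribosomal proteins but carry other symbols, so they are given beside the members.

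Poly(A)-selected RNA of 4T1 cells, a line of mouse mammary carcinoma labelled wild type, was sequenced. The 3 treated samples received Au/MoS2/Bi2S3 heterojunction particles at 125 µg/mL overnight and then 8 min of near-infrared (NIR) light, and were washed after 24 h more. The 3 control samples are labelled only as the control group, and both groups carry a 48 h label. Cells given particles alone or light alone were not analysed here. All samples are of 1 cell line and share 1 batch label, the series text speaks of pooled RNA from 3 individuals, and separate cultures are not named. The p-values thus cover no more than the spread among these 6 samples, part or all of which may be technical.

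A ribosome is built from 1 copy of nearly every ribosomal protein and the ribosomal RNAs, and ribosomal protein transcripts are among the most abundant in growing cells. Most of these transcripts start at a C followed by a run of pyrimidines, the 5' terminal oligopyrimidine (TOP) motif. Through this motif mTORC1, a growth-regulating kinase complex, and the RNA-binding protein Larp1 set how strongly they are translated and how stable they are. Mammalian genomes hold many processed pseudogenes of these genes, and reads from a gene and such a copy can be hard to tell apart.

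Reads at genes, worked back from the deposited FPKM (fragments per kilobase of transcript and M fragments, M for mega), numbered 33.8, 33.4 and 33.2 M in treated 1, 2 and 3, against 38.1, 37.8 and 32.6 M in control 1, 2 and 3. The deposited FPKM had been scaled so that a typical gene has the same level in every library, and each fold change is relative to that typical gene. In bulk RNA, fewer cells of a type and less RNA per cell cannot be told apart. The control libraries stood apart from each other. Genes above 0 numbered 22088, 21821 and 22047 in treated 1, 2 and 3, against 18115, 18988 and 15829 in control 1, 2 and 3. Mitochondrial genes held 1.30%, 1.29% and 1.40% of reads in treated libraries, against 0.173%, 0.854% and 0.0421% in control libraries. Of the epithelial markers, the keratin transcripts Krt8, Krt18 and Krt19 were present and lower in treated cells (-0.45, -1.58 and -1.90 on the log2 scale). Epcam was low at 0.896 ± 0.117 FPKM in treated and 4.99 ± 0.673 FPKM in control cells (SD, n = 3 each), and Cdh1 was near 0 at 0.0836 and 0.0463 FPKM. The immune markers Ptprc, Cd3e and Adgre1 summed to under 1 FPKM, and of the fibroblast and endothelial markers Col3a1 alone exceeded 2 FPKM, at 21.4 ± 0.645 FPKM in treated and 223.3 ± 167 FPKM in control cells. What these markers contribute to the results was not tested.

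Ribosomal protein transcripts made up a smaller part of the library in treated cells. They took 8.01%, 8.55% and 7.59% of reads at genes in treated 1, 2 and 3, against 16.3%, 16.3% and 16.6% in control 1, 2 and 3. The groups did not overlap, and this share does not depend on how the libraries were scaled to each other. Large subunit members held 4.58%, 4.95% and 4.39% of reads in treated libraries, against 8.89%, 9.30% and 8.34% in control libraries. Small subunit members held 3.43%, 3.60% and 3.20% in treated libraries, against 7.39%, 6.97% and 8.26% in control libraries.

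Gene by gene, 60 of the 81 members that could be tested were lower in treated cells, Rpl7l1 alone was higher and 20 were not called (limma on log2(FPKM + 1), Benjamini-Hochberg adjusted p under 0.05 over 11118 genes). Of all genes tested, 28.3% were called lower, 27.9% higher and 56.1% in either direction. The median log2 fold change, treated over control, was -1.52 over the tested members and -0.01 over all genes. Every treated library lay below every control library for 61 members and above for 1, while 19 overlapped, where 34.1% of all genes lay below and 33.6% above. The members that passed the filter on low values are not all members, since Rpl3l, Rpl10l and Rpl39l did not pass it.

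The fall held for the same 60 members against control 1 alone and against control 2 alone, with 69 and 79 members lower in all and 38.1% and 38.4% of all genes lower. Against control 3 alone 58 members were lower and 11 higher, with 39.7% of all genes lower and 41.5% higher. Its size rested on how the libraries were scaled. With scaling by library size only, 47 of 80 members were lower and their median was -0.78, while the median of all genes was 0.58 and 9.77% of all genes were lower. With quantile normalization 21 members were lower at a median of -0.12, beside 24.5% of all genes. With the trend on level, length and GC content removed in each library, 18 were lower at a median of -0.17, beside 22.3% of all genes. Both of these settings compare a gene with genes of like abundance, the members themselves among them. Under both, the members' share of lower calls was near that of all genes, but Rpl7l1 alone was higher. Of all genes 27.2% were higher with quantile normalization and 23.6% with the trend removed.

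**Figure D1:**
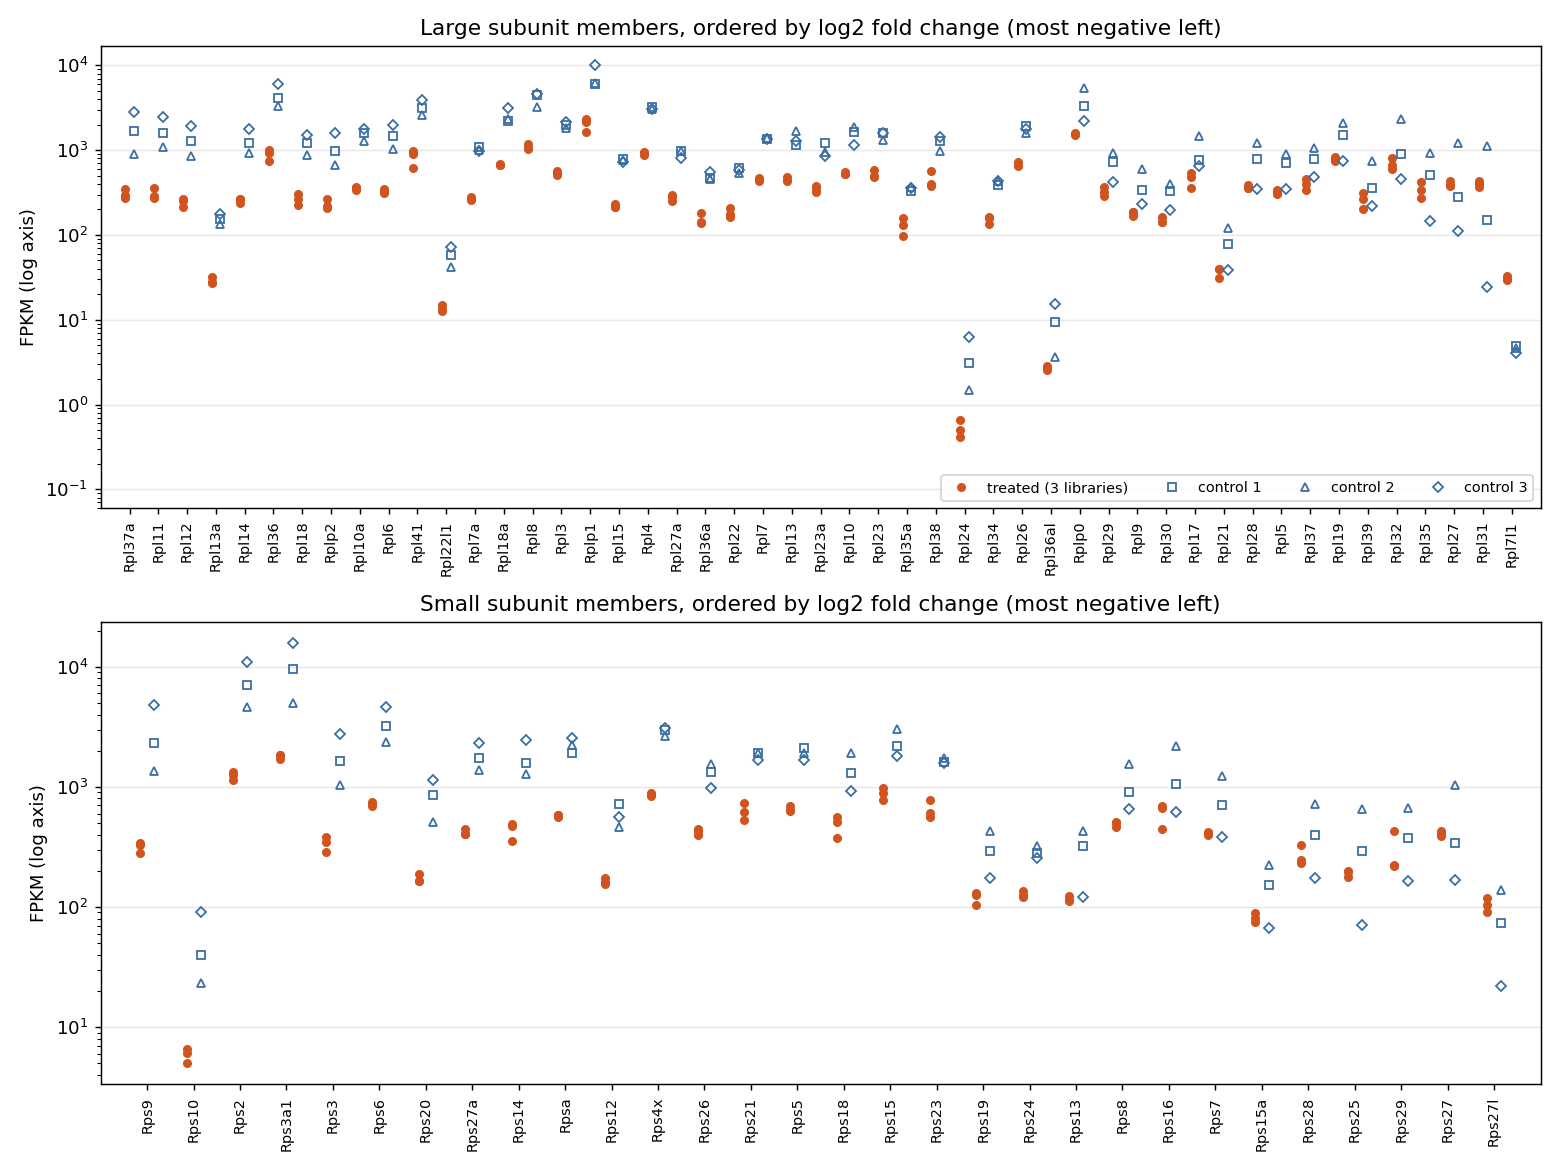
FPKM of 79 of the 81 tested members in each library on a log axis, with the 3 treated libraries as filled circles left of control 1 (squares), control 2 (triangles) and control 3 (diamonds), large subunit above and small subunit below, ordered by log2 fold change. Treated libraries lie within 1.95-fold of each other for every member drawn, with Rps29 the widest, most controls lie above them, and the controls spread most for the members at the right, such as Rpl31.

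Abundant transcripts as a whole were lower in treated cells, and the ribosomal protein genes are nearly all among them. When the genes tested were divided into 10 groups by mean level, 76 of the 81 tested members fell in the highest group. The other 1036 genes of that group had a median log2 fold change of -0.89, and 66.7% of them were called lower. Of all 81 tested members, in whichever group, 74.1% were called lower. In the lowest group the median was 0.52 and 11.3% of genes were called lower. The members' own levels spanned a narrower range in treated cells, where the 90th percentile of mean FPKM was 8.26 times the 10th percentile, against 20.1 times in control cells. With FPKM rescaled to the length of the mRNA, in place of all exons of the gene, these spans were 9.08 and 11.8 times, so most of the contrast was lost. On that scale Rps2, a protein of the small subunit, had the highest mean of any tested member, at 2276 in treated and 13864 in control cells.

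The large and small subunit shared the direction. Of 49 tested large subunit members, 39 were lower, 1 higher and 9 not called, with a median log2 fold change of -1.54. Of 32 tested small subunit members, 21 were lower, none was higher and 11 were not called by limma, with a median of -1.43. At an unadjusted p under 0.05 also 0 small subunit members were higher by limma. The summed FPKM of the large over the small subunit was 1.42, 1.43 and 1.39 in treated 1, 2 and 3, against 1.26, 1.39 and 1.11 in control 1, 2 and 3. These ratios overlap, because control 2 (1.394) lies just above treated 3 (1.390). The subunits differed little against control 2 alone, with medians of -1.61 for the large and -1.62 for the small subunit. Against control 3 alone the medians were -1.60 for the large and -1.12 for the small subunit. Genes are not replicates, so the difference between the subunits was given no test.

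**Figure D2:**
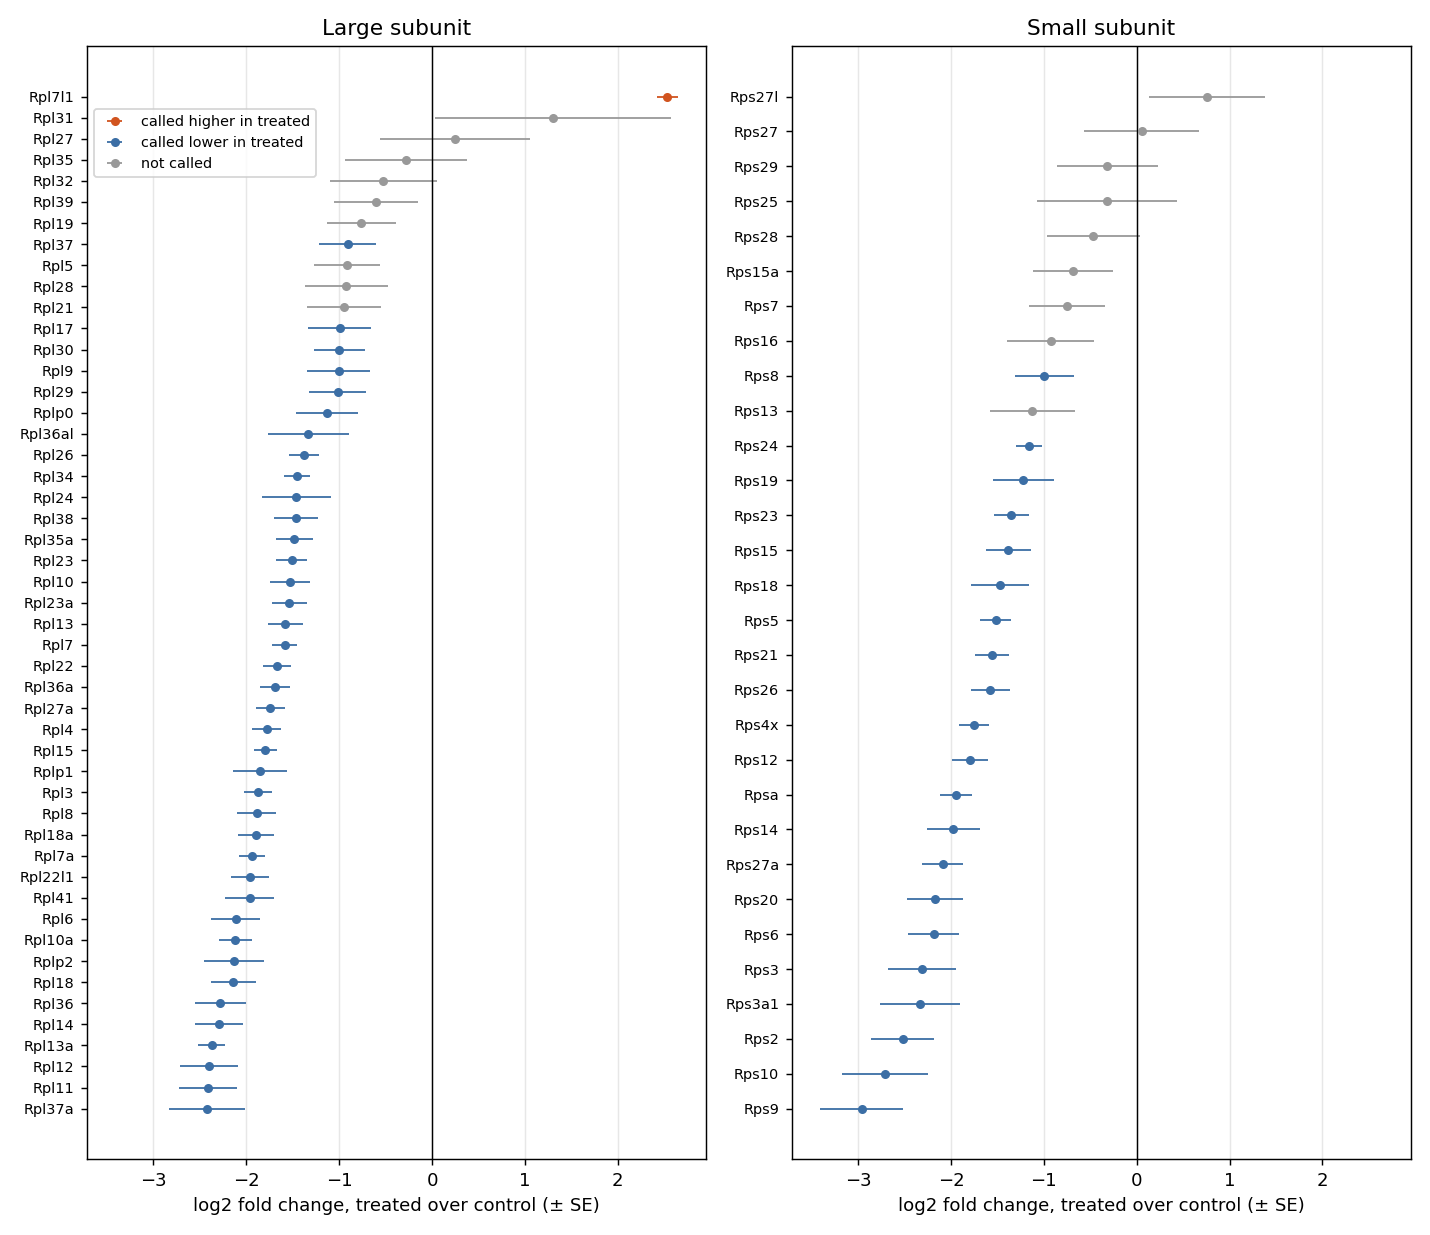
Log2 fold change of 79 of the 81 tested members, treated over control, with its standard error (limma, 3 libraries a group), large subunit left and small subunit right. Blue members were called lower, the orange member Rpl7l1 higher and grey members were not called, and the grey members carry the widest errors. The values are those of the deposited scaling, under which the median of all tested members is -1.52, and -0.12 with quantile normalization.

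The control libraries gave the members different profiles. The median SD of log2 levels over the tested members was 0.11 in treated and 0.52 in control libraries, where over all genes it was 0.07 and 0.27. The highest control exceeded the lowest by more than 2-fold for 41 members (50.6%), beside 31.5% of all genes, and no member differed that much among treated libraries. Control 1 lay between the other controls for 64 members, with control 2 on top for 36 of these and control 3 on top for 28. All 28 members with control 3 on top were called lower, as were 16 of the 36 with control 2 on top. The control values that set this order also enter the fold change and its test, so the 2 are not independent.

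Read against 1 control at a time, the fall was even against control 2 and uneven against control 3. Against control 2 alone, the members' log2 fold changes had a 10th percentile of -1.87, a median of -1.62 and a 90th percentile of -1.33. Against control 1 alone these were -2.29, -1.57 and -0.43. Against control 3 alone they were -2.80, -1.51 and 1.21. The medians lie close together, while the distance between the outer percentiles is 0.54, 1.85 and 4.01 for control 2, 1 and 3. Against control 2 alone 1 member, Rpl7l1, was above 0, and the highest small subunit member was Rps27l, at -0.40. Of the 40 members whose controls lay within 2-fold of each other, 39 were lower and 1 higher, with a median of -1.76. Of the 7612 genes with such controls 32.1% were lower and 29.3% higher, and the spread of the controls enters the test itself. In the highest group by mean level, 719 genes other than members had such controls. Of these 72.7% were lower, with a median of -0.84.

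**Figure D3:**
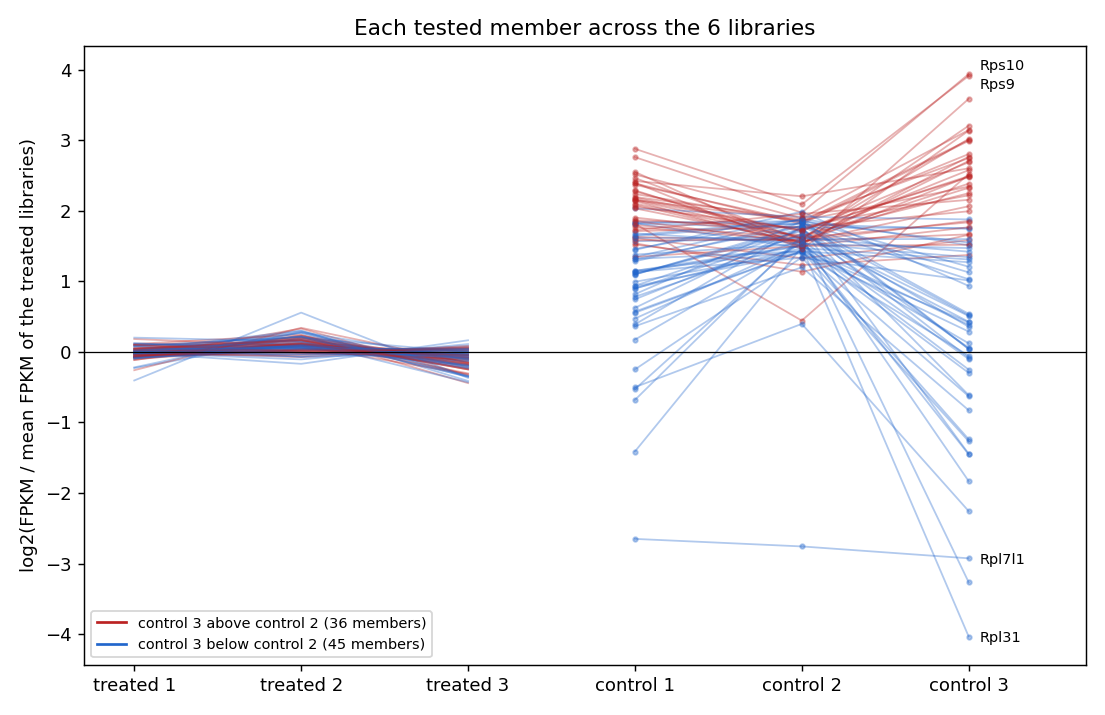
Each line is a tested member, shown as log2 of its FPKM over its mean in the treated libraries, across treated 1 to 3 and control 1 to 3. Lines converge at control 2, between 1 and 2.2 for nearly all members, and fan out at control 3, where 36 members (red) lie above control 2 and 45 (blue) below it.

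What separated the 36 members higher in control 3 than in control 2 from the other 45 was not found among the features looked at. Across the 81 tested members, the log2 ratio of control 3 over control 2 had a Spearman correlation of 0.14 with mRNA length, 0.21 with protein length, 0.03 with GC content and -0.03 with the share of the transcript found elsewhere in the transcriptome. The fold change against control 2 alone had a correlation of -0.41 with protein length and -0.36 with GC content. These are descriptions across genes of the same libraries, and carry no p. Members of both subunits are on both sides, with 24 large and 12 small subunit members higher in control 3.

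The largest falls, those of Rps9, Rps10 and Rps2, were in the small subunit. Against control 2 alone the largest fall was that of Rpl13a, of the large subunit, at -2.17, with Rps9 at -2.09. Rps9, which lies near the site where the mRNA enters, had 326, 342 and 282 FPKM in treated 1, 2 and 3, against 2326, 1347 and 4761 FPKM in control 1, 2 and 3. Even the lowest control was several times the highest treated library, and the mean was 8.89-fold lower in treated cells. On the log2 scale the difference was -2.96 ± 0.45 (SE, limma adjusted p = 0.00245), and -1.51 with quantile normalization, where it was still called. Rps10, which is ubiquitinated when ribosomes collide, had 6.05, 6.56 and 5.04 FPKM in treated libraries, against 39.8, 23.1 and 90.1 FPKM in control libraries. The groups are far apart, with a log2 fold change of -2.71 ± 0.46 (limma adjusted p = 0.00378). With the reads of its own pseudogenes added the change was -1.56, which would not be among the largest falls, and 92.4% of its 50-base stretches occur elsewhere in the transcriptome. Its level is uncertain also because it shares exons with the read-through gene RPS10-NUDT3, which is listed at 0 in all 6 libraries.

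Rps2, also of the mRNA entry region, had 1323, 1253 and 1148 FPKM in treated libraries, against 7095, 4612 and 10975 FPKM in control libraries (-2.52 ± 0.34, limma adjusted p = 0.0016). Rps3a1, another protein of the small subunit, had 1718, 1848 and 1839 FPKM in treated libraries, against 9490.3, 4962 and 15827 FPKM in control libraries (-2.33 ± 0.43, limma adjusted p = 0.00494). Both are among the 3 members with the highest mean FPKM over all 6 libraries, and neither group overlaps the other. With quantile normalization they were at -0.76 and -0.49 and were no longer called. In each of these 4 members control 3 was the highest library and control 2 the lowest control.

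In the large subunit the largest falls were those of Rpl37a, Rpl11, Rpl12 and Rpl13a. Rpl37a, a small zinc-binding protein, had 294, 344 and 273 FPKM in treated libraries, against 1676, 914 and 2799.8 FPKM in control libraries (-2.42 ± 0.40, limma adjusted p = 0.00349). Rpl12, which sits at the base of the stalk, had 253, 267 and 214 FPKM in treated libraries, against 1280.2, 858 and 1945 FPKM in control libraries (-2.40 ± 0.31, limma adjusted p = 0.00142). For both, no treated library reached any control. Rpl13a, which in human cells also acts in translational silencing after its release from the ribosome, had 26.9, 32.2 and 28.2 FPKM in treated libraries, against 156, 134 and 176 FPKM in control libraries. Its controls were close together, and its log2 fold change of -2.37 ± 0.15 (limma adjusted p = 0.000226) was still -1.59 with quantile normalization. Under that setting Rpl11 was at -0.95 and Rpl12 at -1.06, still called lower, while Rpl37a at -0.96 was not (limma adjusted p = 0.0589). Rpl13a too shares exons with a read-through gene, Gm45713, which is listed at 0 in all 6 libraries.

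Rpl5 and Rpl11 bind 5S ribosomal RNA together, and outside the ribosome this complex binds Mdm2, the ubiquitin ligase of p53. Their transcripts did not move alike against the pooled controls. Rpl11 had 291, 356 and 271 FPKM in treated libraries, against 1580.1, 1098 and 2454 FPKM in control libraries, and was called lower (-2.41 ± 0.31, limma adjusted p = 0.00143). Rpl5 had 305, 330 and 335 FPKM in treated libraries, against 707, 914 and 352 FPKM in control libraries, and was not called (-0.92 ± 0.35, limma adjusted p = 0.0666). Every treated library of Rpl5 still lay below every control, with control 3 only just above them. The sign of Rpl5 turned with quantile normalization (0.40) and with the level trend removed (0.21). Against control 1, 2 and 3 alone Rpl11 was at -2.37, -1.85 and -3.01, and Rpl5 at -1.13, -1.50 and -0.12. The 2 genes thus lay closest against control 2 and furthest apart against control 3. Whether they differ in their response was not tested.

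The stalk recruits the translation factors that hydrolyse GTP on the ribosome, and its proteins Rplp0, Rplp1 and Rplp2 were all called lower. Rplp2 had 219, 266 and 210.1 FPKM in treated libraries, against 982, 673.5 and 1577 FPKM in control libraries (-2.13 ± 0.32, limma adjusted p = 0.00241). Rplp1 had 2319, 2169 and 1643 FPKM in treated libraries, against 6117, 6155 and 10242 FPKM in control libraries (-1.85 ± 0.29, limma adjusted p = 0.00282), and at 0.23 its sign turned with the level trend removed. Rplp0 had 1549.9, 1610.4 and 1495 FPKM in treated libraries, against 3313, 5360 and 2223 FPKM in control libraries (-1.13 ± 0.34, limma adjusted p = 0.0287), with its sign turned both with quantile normalization (0.55) and with the level trend removed (0.65). The call of Rplp0 was lost by limma with library size only (adjusted p = 0.396) and without any 1 of the treated libraries or control 1 (0.0779 to 0.0917). The treated libraries of each stay below all controls.

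Other large subunit members named for their role were lower as well. Rpl3, a core protein near the peptidyl transferase centre, averaged 541 ± 30.9 FPKM in treated and 1988 ± 159 FPKM in control cells (-1.87 ± 0.16, limma adjusted p = 0.000389). Rpl10, which joins late in the assembly of the large subunit, averaged 532 ± 18.0 FPKM in treated and 1569 ± 371 FPKM in control cells (-1.53 ± 0.22, limma adjusted p = 0.00198). Rpl41, at 25 residues the shortest member, had a log2 fold change of -1.96 ± 0.27. With quantile normalization Rpl3 was at -0.26, Rpl10 at -0.01 and Rpl41 at -0.30, and none of them was called by limma (adjusted p = 0.206, 0.965 and 0.298). Rpl38, which in mice is needed for normal patterning of the axial skeleton, averaged 447 ± 104 FPKM in treated and 1231 ± 223 FPKM in control cells. Its log2 fold change of -1.47 ± 0.24 (limma adjusted p = 0.00305) turned to 0.01 with quantile normalization and to 0.32 with the level trend removed.

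In the small subunit, Rps6, the substrate of the S6 kinases, had 697, 723 and 749.7 FPKM in treated libraries, against 3235, 2367 and 4659 FPKM in control libraries (-2.19 ± 0.27, limma adjusted p = 0.00124). No treated library came near a control. Rps27a, made as a fusion with ubiquitin, fell to 417 ± 21.3 FPKM in treated cells, against 1816 ± 472 FPKM in control cells (-2.09 ± 0.22). Rpsa, also known as the laminin receptor, averaged 575 ± 14.9 FPKM in treated and 2232 ± 329 FPKM in control cells (-1.94 ± 0.18). Rps26, which contacts the mRNA next to the start codon, and Rps19, the gene most often mutated in human Diamond-Blackfan anaemia, had log2 fold changes of -1.58 ± 0.21 and -1.22 ± 0.33. All 4 of these were called lower by limma. The call of Rps19 was lost with library size only (limma adjusted p = 0.296) and without any 1 of the treated libraries or control 1 (0.055 to 0.0741). With quantile normalization Rps27a alone of Rps6, Rps27a, Rpsa, Rps26 and Rps19 was still called, at -0.61.

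The 20 members that were not called included the large subunit members Rpl5, Rpl19, Rpl21, Rpl27, Rpl28, Rpl31, Rpl32, Rpl35 and Rpl39 and the small subunit members Rps7, Rps13, Rps15a, Rps16, Rps25, Rps27, Rps27l, Rps28 and Rps29. All 20 had control 2 as the highest and control 3 as the lowest control, and for 19 of them the treated libraries overlapped the controls. Rpl31, at the exit of the peptide tunnel, had 402, 429 and 369 FPKM in treated libraries, against 150.4, 1119.9 and 24.4 FPKM in control libraries. Its highest control was 45.9-fold above its lowest, the widest spread of any member. Its treated libraries lie close together while the controls span both sides of them.

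Among the smallest changes were those of Rps27 and Rpl27, and in both the controls lay on both sides of the treated libraries. Rpl27 had 393, 433 and 380.2 FPKM in treated libraries, against 279, 1223 and 113 FPKM in control libraries (0.25 ± 0.81). Rps29, a small zinc-binding protein named for its role, had 219.8, 428 and 225 FPKM in treated libraries, against 374, 668 and 164 FPKM in control libraries (-0.32 ± 0.54). None of these was called by limma, which does not show that they did not change.

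Ribosomal protein genes share features at their starts, shown here because the TOP motif is what ties the family together. For 64 members RefSeq gives a promoter on GRCm38.p6. A run of at least 8 bases, all C or T, touching the stretch from 5 bases before to 10 bases after the start was found in 24 of them (37.5%), against 10.96% of 16515 genes with a promoter. The windows below cover 10 bases before the start and the first 20 transcribed bases, 5' to 3', with the longest run of C and T at the start in capitals. RefSeq's start need not be the start used in 4T1 cells.
Rpl15, chr14:18270967-18270996, minus strand: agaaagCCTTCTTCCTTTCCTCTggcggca
Rpl27a, chr7:109519185-109519214, plus strand: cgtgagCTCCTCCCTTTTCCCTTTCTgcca
Rpl18, chr7:45718061-45718090, plus strand: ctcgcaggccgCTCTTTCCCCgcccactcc
Rpl38, chr11:114668570-114668599, plus strand: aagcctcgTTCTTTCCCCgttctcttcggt
Rplp2, chr7:141447641-141447670, plus strand: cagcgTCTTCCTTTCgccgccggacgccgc
Rps6, chr4:86857348-86857377, minus strand: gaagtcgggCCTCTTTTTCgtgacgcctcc
Rps18, chr17:33955646-33955675, minus strand: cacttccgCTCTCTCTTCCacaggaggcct
Rps27, chr3:90213629-90213658, minus strand: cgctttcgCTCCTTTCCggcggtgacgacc
Rpl7l1, chr17:46782637-46782666, minus strand: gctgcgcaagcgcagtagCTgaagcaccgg
Of these 9 genes the first 7 were called lower, Rps27 was not called, and Rpl7l1, whose longest run has 2 bases, was higher.

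Members with and without the run were both mostly lower. Of the 24 members with a run, 17 were lower and 7 not called. Of the 40 without one, 28 were lower, 1 higher, 8 not called and 3 not tested. Lower calls took 28.3% of all genes tested, and 66.7% of the genes other than members in the highest group by level. Searched on both strands from 250 bases before to 50 after the start, CCGGAAG, the core of sites bound by the ETS factor GABP, was found in 25 members (39.1%) and in 12.4% of all promoters. AANATGGC, the core of the YY1 site, was found in 12 members (18.8%) and in 6.73% of all promoters. TATAAA, the TATA box, was found in 6 members (9.38%) and in 12.95% of all promoters. A match is a description of the letters in this window and not a sign of binding.

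Rpl7l1 was the only member called higher, and it moved against its namesake under the deposited scaling. Rpl7l1 is the paralog of Rpl7, and in yeast the related protein Rlp7 is an assembly factor of the large subunit. It had 29.8, 33.2 and 30.5 FPKM in treated libraries, against 4.96, 4.61 and 4.10 FPKM in control libraries. Treated libraries were all well above control libraries, with a mean 6.84-fold higher and a log2 fold change of 2.53 ± 0.11 (limma adjusted p = 0.000136). It was called higher under every setting tried, lone controls aside, at 2.77 with quantile normalization and 2.63 with the level trend removed. Against control 1, 2 and 3 alone it was at 2.43, 2.52 and 2.66. Of its transcript, 12.2% of 50-base stretches occur elsewhere in the transcriptome, and no other gene overlaps it at chr17:46773907-46782672 on GRCm38. Rpl7, on chromosome 1, had 432, 461 and 467 FPKM in treated libraries, against 1344, 1374 and 1372 FPKM in control libraries (-1.59 ± 0.14, limma adjusted p = 0.000439), the closest controls of any tested member. With quantile normalization Rpl7 was at -0.12 and with the level trend removed at -0.26, and under both its call was lost (limma adjusted p = 0.505 and 0.162).

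The share of Rpl7l1 in the sum of both paralogs was 6.46%, 6.72% and 6.13% of FPKM in treated libraries, against 0.368%, 0.334% and 0.298% in control libraries. The log2 ratio of Rpl7l1 over Rpl7 was thus higher by 4.12 in treated cells, and by 2.89 with quantile normalization. The groups did not overlap, which in an exact permutation test, two-sided, gives p = 0.1, the smallest that 3 against 3 samples allow (Benjamini-Hochberg 0.2 over 4 pairs). The coding sequences of the pair are 52.8% identical, with no identical run over 10 bases.

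Rps27 and Rps27l encode proteins of 84 residues each, and Rps27l is a p53 target. Rps27 had 431, 387 and 402 FPKM in treated libraries, against 342, 1029 and 169 FPKM in control libraries (0.06 ± 0.62). Rps27l had 104, 118 and 91.1 FPKM in treated libraries, against 73.9, 138 and 21.9 FPKM in control libraries (0.76 ± 0.63, limma adjusted p = 0.335). The treated libraries of each lie between the controls. The share of Rps27l in their sum was 19.5%, 23.4% and 18.5% in treated libraries, against 17.8%, 11.8% and 11.5% in control libraries. These shares do not overlap, although treated 3 is only just above control 1, and the log2 ratio was higher by 0.71 (exact permutation test, two-sided, p = 0.1, Benjamini-Hochberg 0.2 over 4 pairs). With quantile normalization it was higher by 0.20 (exact permutation test, p = 0.5).

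The coding sequences of the Rps27 pair are shown because the split of reads between them rests on where they differ. They are 76.1% identical, with 61 of 255 bases different, in capitals, and no identical run over 11 bases. The sequences are from GENCODE M21 on GRCm38.
Rps27, gene at chr3:90212522-90213651, minus strand: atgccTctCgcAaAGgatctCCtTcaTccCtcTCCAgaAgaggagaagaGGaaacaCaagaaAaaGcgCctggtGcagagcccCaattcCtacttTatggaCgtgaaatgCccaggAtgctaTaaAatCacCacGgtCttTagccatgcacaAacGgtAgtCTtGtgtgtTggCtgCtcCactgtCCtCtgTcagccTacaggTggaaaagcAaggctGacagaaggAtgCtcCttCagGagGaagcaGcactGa
Rps27l, gene at chr9:66946086-66949516, plus strand: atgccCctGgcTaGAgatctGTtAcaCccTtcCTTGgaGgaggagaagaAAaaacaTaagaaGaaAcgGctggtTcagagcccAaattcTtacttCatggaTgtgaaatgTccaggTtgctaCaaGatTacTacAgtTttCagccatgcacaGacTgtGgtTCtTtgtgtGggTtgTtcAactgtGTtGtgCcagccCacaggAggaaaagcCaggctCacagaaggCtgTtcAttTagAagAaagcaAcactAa
Reads of Rps27 are less sure against another gene. Of its 50-base stretches 98.7% occur elsewhere, and the protein-coding retrogene Rps27rt had 253, 263 and 170.4 FPKM in treated libraries, against 138, 685 and 31.8 FPKM in control libraries, the same order of controls as Rps27.

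In the other 2 tested pairs both paralogs were lower. Rpl22l1, the paralog of the RNA-binding protein Rpl22, had 13.4, 14.8 and 12.8 FPKM in treated libraries, against 58.6, 41.8 and 71.3 FPKM in control libraries (-1.96 ± 0.20, limma adjusted p = 0.00071). Rpl22 had 179, 208 and 162 FPKM in treated libraries, against 623, 544 and 581 FPKM in control libraries (-1.67 ± 0.15, limma adjusted p = 0.000481). The log2 ratio of Rpl22l1 over Rpl22 differed by -0.29, treated minus control, with overlapping groups (exact permutation test, two-sided, p = 0.3, Benjamini-Hochberg 0.4 over 4 pairs). With quantile normalization it differed by -0.94 (exact permutation test, p = 0.1, the smallest possible). Rpl36al had 2.88, 2.68 and 2.52 FPKM in treated libraries, against 9.47, 3.66 and 15.5 FPKM in control libraries (-1.33 ± 0.44, limma adjusted p = 0.04). This call was lost by limma with library size only (adjusted p = 0.136), with the level trend removed (0.0681), and without any 1 of the treated libraries, control 1 or control 3 (0.0516 to 0.117). Rpl36a averaged 153 ± 23.3 FPKM in treated and 494 ± 52.4 FPKM in control cells (-1.69 ± 0.17, limma adjusted p = 0.000589). The log2 ratio of Rpl36al over Rpl36a differed by 0.36 (exact permutation test, two-sided, p = 0.7), and the sign turned with quantile normalization (-0.84) and without control 2 (-0.08). Rpl36al shares exons with the read-through gene Gm49383, which is listed at 0 in all 6 libraries.

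Paralogs known from other tissues were at or near 0. Rpl10l and Rpl39l, which are known from the testis, were listed at 0 in all 6 libraries, while Rpl39 averaged 261 ± 54.6 FPKM in treated and 445 ± 277 FPKM in control cells and was not called. Rpl39 was at -0.60 in log2 fold change, and turned positive with library size only (0.14), quantile normalization (0.58) and the level trend removed (0.60). Rpl3l, known from striated muscle, was at 0.0542, 0 and 0 FPKM in treated libraries, against 0.0389, 0 and 0 FPKM in control libraries. Rps4x, whose relative Rps4l is annotated as a pseudogene, averaged 864 ± 25.6 FPKM in treated and 2911 ± 231 FPKM in control cells (-1.75 ± 0.16, limma adjusted p = 0.000508), and with quantile normalization it was at -0.02 and not called.

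**Figure D4:**
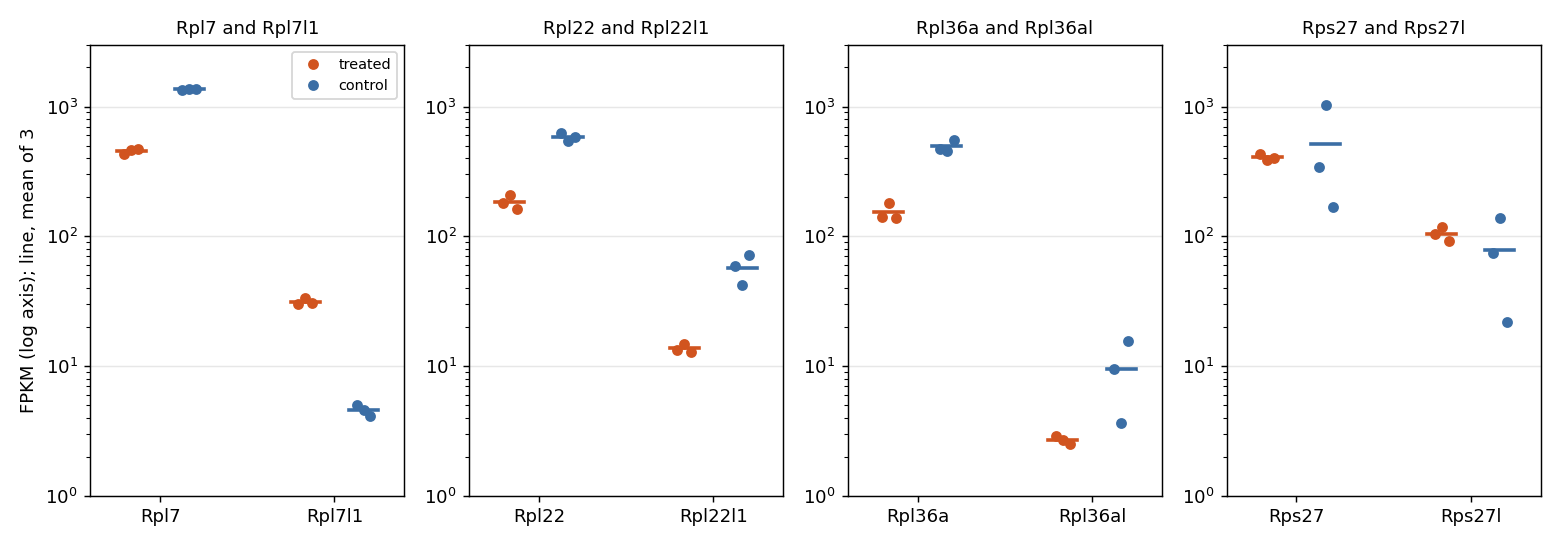
FPKM on a log axis of each tested paralog pair, with treated libraries (orange) left of control libraries (blue) and a line at the mean of 3. Rpl7 is lower and Rpl7l1 higher in treated cells, Rpl22 and Rpl22l1 as well as Rpl36a and Rpl36al are both lower, and the controls of Rps27 and Rps27l lie on both sides of the treated libraries.

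Most members share sequence with copies elsewhere in the genome, and members with many and with few such stretches were both mostly lower. At least 50% of the 50-base stretches of the transcript occur elsewhere in the transcriptome for 53 tested members, of which 40 were lower and 13 not called, with a median log2 fold change of -1.48. Of the other 28, 20 were lower, 1 higher and 7 not called, with a median of -1.54. Of 300 pseudogenes with Rpl or Rps symbols 96 could be tested, of which 66 were lower and none higher by limma (1 higher at an unadjusted p under 0.05), with a median of -1.25. Their summed FPKM was 3551, 3274 and 3512 in treated libraries, against 10485, 11944 and 8789 in control libraries. Rps12-ps9 had the smallest p among them and averaged 3.06 ± 0.297 FPKM in treated and 17.1 ± 1.39 FPKM in control cells. With the reads of such pseudogenes added to the members, 60 were lower and 1 higher, beside 28.3% and 27.9% of all genes, although the change of Rps10 shrank to -1.56. Only pseudogenes named after the member were added. Copies under other symbols, such as Gm9794 of Rpl23 and Gm10275 of Rpl12, were not, so their reads are not covered. Rpl24, a protein at the bridge between the subunits, had the lowest level of any tested member, at 0.497, 0.659 and 0.417 FPKM in treated libraries, against 3.07, 1.47 and 6.30 FPKM in control libraries. It shares exons with the read-through gene Gm28037, which is listed at 0 in all 6 libraries, so its level is uncertain.

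Many ribosomal protein genes carry small nucleolar RNA genes, which guide the modification of ribosomal RNA, in their introns. Of the 29 tested members that do, 22 were lower and 7 not called, with a median of -1.74. Of the 52 others, 38 were lower, 1 higher and 13 not called, with a median of -1.47. Lower calls took 28.3% of all genes tested, and 66.7% of the genes other than members in the highest group by level. Against control 2 alone these medians were -1.69 and -1.59.

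Fau and Rack1, outside the symbol rule, were lower as well under the deposited scaling. Fau, a fusion of a ubiquitin-like domain with a small subunit protein, averaged 657 ± 81.8 FPKM in treated and 2477 ± 521 FPKM in control cells (-1.90 ± 0.22, limma adjusted p = 0.000906). Rack1, a scaffold protein bound to the small subunit, averaged 449.6 ± 9.002 FPKM in treated and 1209 ± 181 FPKM in control cells (-1.41 ± 0.17, limma adjusted p = 0.00107). With quantile normalization Fau was at -0.16 and Rack1 at 0.013, and neither was called by limma (adjusted p = 0.446 and 0.946).

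Other mRNAs with a TOP motif were lower too under the deposited scaling. Of 21 such transcripts, mostly of translation factors and with Fau and Rack1 among them, 19 were lower and none higher by limma (0 higher at an unadjusted p under 0.05), with a median of -1.60. Of all genes 28.3% were lower, and of the genes other than members in the highest group by level 66.7%. Eif3f, a subunit of the initiation factor eIF3, averaged 108 ± 3.57 FPKM in treated and 351 ± 19.1 FPKM in control cells (-1.69 ± 0.12, limma adjusted p = 0.000278). With quantile normalization 7 of the 21 were lower at a median of -0.34, beside 24.5% of all genes. With the level trend removed 7 were lower at a median of -0.23, beside 22.3% of all genes.

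The ribosomal proteins of mitochondria, a separate family encoded by Mrpl and Mrps genes, had calls in both directions, more of them lower under the deposited scaling. Of 77 tested, 7 were higher and 29 lower, with a median of -0.29, beside 27.9% of all genes higher and 28.3% lower. Mrps2 averaged 8.95 ± 0.651 FPKM in treated and 2.24 ± 0.308 FPKM in control cells (1.62 ± 0.12), and Mrpl9 averaged 24.7 ± 0.987 FPKM in treated and 86.0 ± 11.6 FPKM in control cells (-1.75 ± 0.14). With library size only 27 were higher and 6 lower, at a median of 0.37, where 55.8% of all genes were higher and their median was 0.58. Whether this family differs from the cytosolic one was not tested.

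Genes that act on ribosomal proteins did not share one direction, and neither did all genes tested, with 27.9% higher and 28.3% lower. Of 13 tested chaperones and importers of ribosomal proteins, 3 were higher and 6 lower, with a median of -0.49. Heatr3, which in human cells brings Rpl5 to the nucleus, averaged 3.61 ± 0.282 FPKM in treated and 0.653 ± 0.063 FPKM in control cells (1.48 ± 0.09), and Ipo5, an importin, averaged 66.9 ± 2.69 FPKM in treated and 160.4 ± 17.3 FPKM in control cells (-1.24 ± 0.13). Of 17 mTORC1 components and LARP proteins, 5 were higher and 3 lower, with a median of -0.19. Larp4b, an RNA-binding protein, was higher (0.95 ± 0.10) and Larp1b, a relative of Larp1, was lower (-1.04 ± 0.16).

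Of 8 transcription factors that bind promoters of ribosomal protein genes, 1 was higher and 3 lower, with a median of -0.06. Tbp, the TATA-binding protein, was higher (0.76 ± 0.13) and Max, the partner of Myc, was lower (-1.01 ± 0.11). Of 14 genes that ubiquitinate ribosomal proteins or rescue stalled ribosomes, 5 were higher and 5 lower, with a median of 0.16. For both lists the shares of all genes were 27.9% higher and 28.3% lower. Mdm2, which the Rpl5 and Rpl11 complex binds, averaged 17.2 ± 0.391 FPKM in treated and 7.68 ± 0.654 FPKM in control cells (1.07 ± 0.10). Rnf10, which ubiquitinates Rps2 and Rps3, averaged 23.8 ± 0.298 FPKM in treated and 46.8 ± 2.22 FPKM in control cells (-0.94 ± 0.10). With library size only the medians of these 4 lists were 0.24, 0.45, 0.54 and 0.74, beside 0.58 for all genes.

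**Figure D5:**
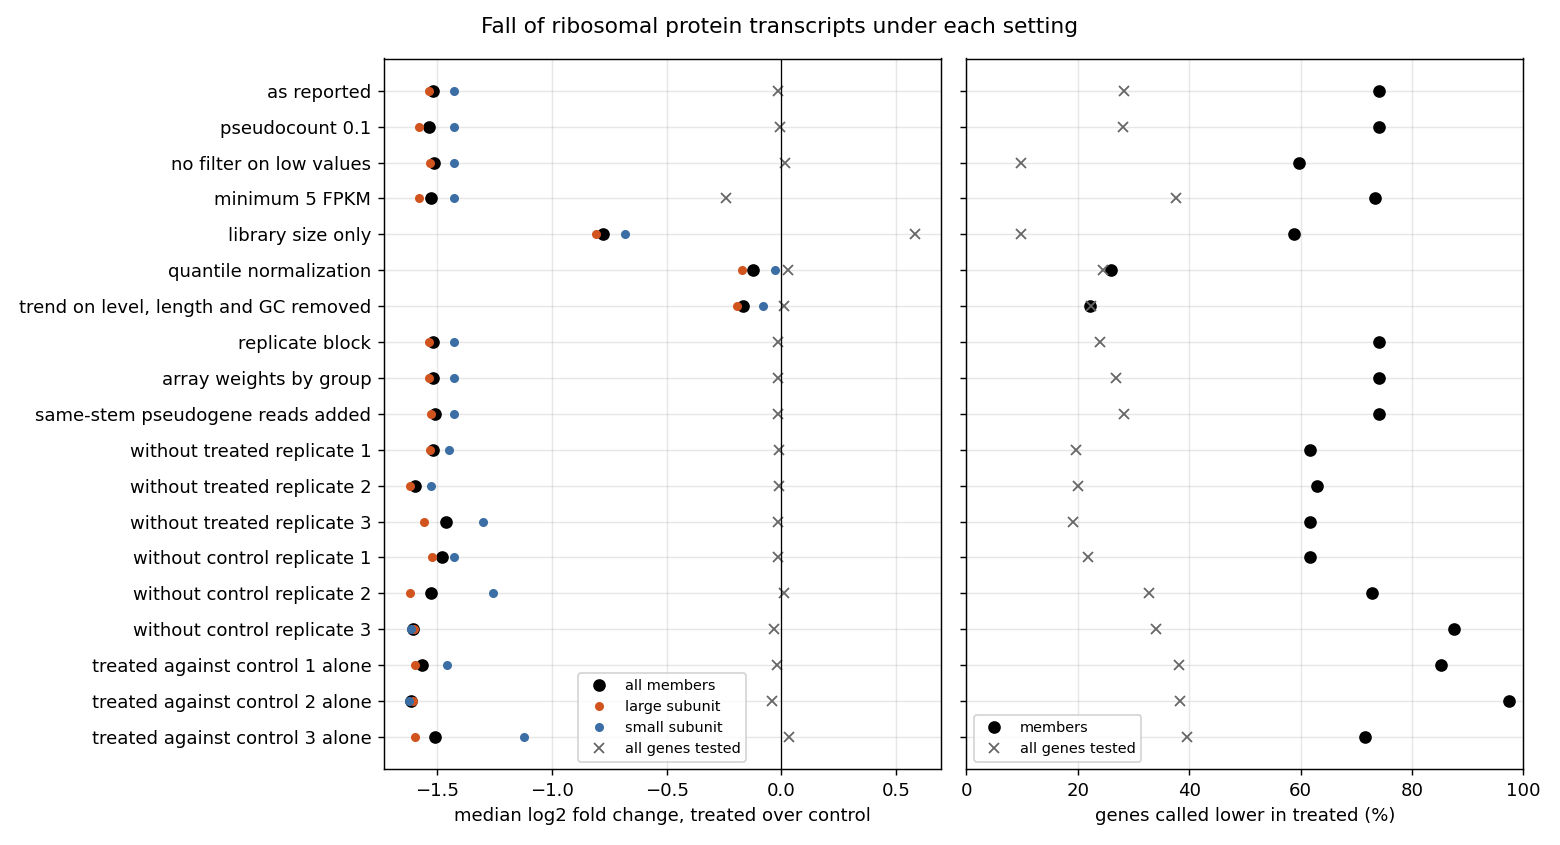
Left, the median log2 fold change, treated over control, of all tested members, the large and the small subunit, with that of all genes tested as crosses; right, the percentage of members and of all genes called lower, under each setting. The members' medians stay below 0 under every setting. They come closest to 0 with quantile normalization (-0.12) and with the trend on level, length and GC content removed (-0.17). There the share called lower meets that of all genes, while 1 member was called higher, beside 27.2% and 23.6% of all genes. With a lone control the spread behind the calls comes from the treated libraries only.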

How the data were processed

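RNA-seq libraries were prepared from 3 µg of RNA with poly-T beads and read as paired 150 bp reads, per the labels' protocols. The authors deposited 1 FPKM value per gene and sample, per the file headers. For the aligner, read counter, genome build and annotation the sources used here name nothing. Symbols, coordinates and lengths come from GENCODE M21 (GRCm38), matched on the gene identifier. With its exon lengths, at least 92.5% of values under 200 reads were whole within 0.02 of a read, and at least 97.1% of those of 1000 reads or more were whole within 0.05. The median-of-ratios factor computed from the FPKM was 1.01 in every library, so the values had been scaled between libraries.

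Genes with at least 1 FPKM in at least 3 of the 6 libraries (11118) were tested with limma 3.58.1 in R 4.3.3 on log2(FPKM + 1), with a trended prior and group as the only term. This scale understates the change of low genes. Benjamini-Hochberg adjustment covered all genes tested. The procedure was tested on simulated data in which both groups had the same spread. In these libraries the median SD over all genes was 0.07 in treated and 0.27 in control, so the simulation does not cover unequal spread. Ratios of paralogs on log2(FPKM + 1) were compared by exact permutation over samples. Values are mean ± SD over 3 samples; fold changes are treated over control, on the log2 scale ± SE. Transcripts were compared with each other by 50-base stretches, and coding sequences were aligned with Biopython 1.88. The read numbers bear on counting error alone, as PCR copies were not marked.

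The genes named are the paralogs, members picked for their role, the member called higher, the 4 largest falls of each subunit, the 3 highest levels, the smallest changes, Fau and Rack1, and the called gene with the smallest p in each direction of each other list. Rpl24, Rpl31, the other members not called, the genes overlapping or copying a member, those whose start is printed and the markers were named after their values were seen. A few genes are counted in the totals but are not reported here by name. The members and lists were chosen with earlier results of these data known. Alternatives were the pseudocount, the filter, the scaling, the level trend, array weights, a replicate block, added pseudogene reads and leaving out each library. Comparisons with each control alone were chosen after seeing the data.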

Additional observations from a re-analysis of the deposited data

How the results depend on the processing

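Rpl7l1 was called higher under every setting run, lone controls aside, and the members' median stayed below 0 under all settings. With quantile normalization 21 members were called lower (16 large, 5 small subunit), at medians of -0.12 for all, -0.17 for the large and -0.030 for the small subunit. With the trend on level, length and GC content removed 18 were lower (14 large, 4 small), at medians of -0.17, -0.20 and -0.079. With library size only the medians were -0.78, -0.81 and -0.68. All 21, 18 and 47 members called lower under these settings are among the 60 called as reported. The cause was not tested, although quantile normalization and the trend by construction remove what genes of like abundance share.

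Leaving out 1 library at a time gave between 50 and 71 members lower and between 1 and 3 higher, with a median between -1.61 and -1.46, while the share of all genes lower moved between 19.2% and 34.0%. For the large subunit 31 to 44 were lower, 1 to 3 higher and the median lay between -1.62 and -1.52. For the small subunit 19 to 27 were lower, none higher by limma, and the median lay between -1.62 and -1.26. The high count was reached without control 3, where the share of all genes was also highest, and Rpl27 and Rpl31 joined Rpl7l1 without control 2. Against control 1 alone 6 members were above 0 (3 large, 3 small), against control 2 alone 1 and against control 3 alone 17 (8 large, 9 small). The small subunit medians were -1.62 against control 2 alone and -1.12 against control 3 alone. In these comparisons the lone control is assumed to vary like the treated libraries. The members' median SD was 0.11 in treated and 0.52 in control libraries, so no calls are given for them.

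The sign turned for 26 members with quantile normalization, 13 of them called as reported, for 27 with the trend removed, 14 of them called, and for 8 with library size only, none of them called. With library size only, Rpl39 was at 0.14 and Rps29 at 0.43. With quantile normalization, Rpl38 was at 0.0090, Rpl39 at 0.58, Rpl5 at 0.40, Rplp0 at 0.55, Rps29 at 0.84 and the Rpl36al over Rpl36a ratio at -0.84. With the trend removed, Rpl38 was at 0.32, Rpl39 at 0.60, Rpl5 at 0.21, Rplp0 at 0.65, Rplp1 at 0.23 and Rps29 at 1.00. Against control 2 alone, Rpl27 was at -1.61, Rps27 at -1.34 and Rps27l at -0.40. Against control 3 alone, Rpl39 was at 0.23 and Rps29 at 0.75. Leaving out 1 library moved Rpl27 between -0.54 and 1.17, Rps27 between -0.55 and 0.75, Rps29 between -0.85 and 0.16, and the Rpl36al over Rpl36a ratio between -0.084 and 0.68. The ratio of Rpl7l1 over Rpl7 lay between 4.06 and 4.18 there and was 2.89 with quantile normalization. Without the filter on low values 49 members were lower, beside 9.8% of all genes, and 11 lost their call, among them Rpl36al, Rplp0, Rplp1, Rps19 and Rps3a1. With library size only the other lists had 6 higher and 1 lower (chaperones and importers), 10 and 1 (mTORC1 and LARP), 5 and none (promoter factors) and 8 and 1 (ribosome quality control), where 55.8% of all genes were higher and 9.77% lower.

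With the replicate number as a block 60 members were lower and 1 higher, 59 of the 60 the same. The numbers do not pair the samples: deviations of same-numbered samples correlated at -0.05, -0.11 and -0.14 across genes. Depth does not limit the abundant members. Of the paralogs listed at 0 and of the members that share exons or sequence with other genes, no level can be given more closely, and with 3 samples a group the exact test of a ratio cannot go below 0.1.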
